A study of Mus musculus with 12 samples.

Results

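The 30 genes that encode enzymes of nucleotide, one-carbon and polyamine synthesis were followed in 12 liver RNA libraries from mice with a YAP or a MYC transgene. The members were taken by gene symbol from a list of 30, chosen with earlier results of these data known, out of 48576 genes in the count files. All 30 had enough counts to be tested. They fall into 5 roles: 11 genes of de novo purine synthesis, 6 of pyrimidine synthesis, 4 of nucleotide salvage and nucleotide kinases, 5 of folate one-carbon metabolism and 4 of polyamine synthesis.

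The YAP mice had the genotype Col-TRE-YAPS127A; Rosa26-LSL-rtTA, in which doxycycline drives YAPS127A, a form of the growth regulator YAP that resists inhibitory phosphorylation. Per the series text, Cre was delivered between 8 and 10 weeks of age by an AAV with the TBG promoter, which is active in hepatocytes. The YAP groups were uninduced controls (n = 2), 2 weeks of induction (n = 2) and 4 weeks of induction (n = 3). The MYC mice had the genotype LAP-tTA; TRE-MYC, in which removing doxycycline switches MYC on in liver. Pregnant dams lost the drug near embryonic day 8, and offspring livers were taken 4 weeks after birth (n = 3). The MYC controls carried LAP-tTA without the MYC transgene and had the same doxycycline schedule (n = 2). The 2 models therefore differ in transgene, driver, age and length of induction, and no group combines them. The labels name hepatocytes as the cell type, while the extraction notes describe total liver RNA. The labels number the samples of a group without naming animals, so p-values measure the spread between these samples.

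A dividing cell needs new purine and pyrimidine bases, and it builds them from amino acids, carbon dioxide, ribose phosphate and single carbons carried by folate. Serine gives most of these carbons: SHMT2, MTHFD2 and MTHFD1L release them in mitochondria as formate, and MTHFD1 and SHMT1 use and exchange them in the cytosol. Polyamines, which bind nucleic acids and are needed for growth, are made from ornithine by ODC1 and then by spermidine and spermine synthase, with AMD1 supplying aminopropyl groups. Many of these genes are textbook targets of MYC, which binds E-box sequences with its partner MAX. The adult liver, whose cells seldom divide, also uses the same folate enzymes to handle dietary serine, glycine and methionine.

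The letters CACGTG, the canonical E-box and its own reverse complement, were searched in promoter windows because MYC is one of the transgenes. Windows ran from 250 bases before to 50 bases after each RefSeq start on GRCm38.p6, and 27 of the 30 members had one. Pfas, Dhodh and Srm had none in the table. The letters occurred in the windows of 6 of 27 members (22.2%), against 8.1% of 27025 genes with a window and 11.1% of the 11572 tested genes with one. Mean GC content was 60.8% in the members, 53.8% in all genes and 59.5% in tested genes. The 7 matches are printed with 12 bases on each side, 5′ to 3′ on the strand of the gene, with the motif in capitals.
Paics (chr5:76951087-76951116, plus strand): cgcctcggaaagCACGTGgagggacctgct
Atic (chr1:71557137-71557166, plus strand): ggacctcggggtCACGTGgggtcgacacgc
Impdh2 (chr9:108560314-108560343, plus strand): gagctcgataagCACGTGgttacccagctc
Tyms (chr5:30073669-30073698, minus strand): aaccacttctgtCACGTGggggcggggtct
Nme1, first start (chr11:93968273-93968302, minus strand): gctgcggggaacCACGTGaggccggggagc
Nme1, second start (chr11:93968037-93968066, minus strand): agcttgatacgcCACGTGggctcgcctttg
Sms (chrX:157492466-157492495, minus strand): cccagcggggttCACGTGcatttaaagaaa
The Paics stretch lies in an exon of its neighbour Ppat, those of Impdh2 and the first Nme1 start lie in exons of those genes, and that of Atic is partly exonic. The others overlap no annotated exon. Of the members with a window, 2 of the 6 that rose in MYC livers held the letters (Tyms and Sms), as did 1 of the 2 that fell (Paics) and 3 of the 19 that did not pass the test. A match describes the letters in a window and is not a binding site.

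The largest rises among the members belonged to Mthfd1l and Ctps in YAP livers and to Mthfd1l and Ctps2 in MYC livers. No window of these genes held CACGTG (1 for Mthfd1l, 2 for Ctps and 3 for Ctps2). For each gene, the 250 bases upstream of the first start in the RefSeq table are printed to show a region without it. The Ctps2 stretch lies inside the annotated span of the gene, downstream of its other 2 starts.
Mthfd1l (chr10:3972825-3973074, plus strand): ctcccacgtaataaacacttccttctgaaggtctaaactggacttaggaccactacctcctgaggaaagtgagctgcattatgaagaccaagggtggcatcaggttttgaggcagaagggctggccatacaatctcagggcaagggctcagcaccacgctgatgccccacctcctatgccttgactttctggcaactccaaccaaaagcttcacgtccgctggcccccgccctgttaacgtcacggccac
Ctps (chr4:120570277-120570526, minus strand): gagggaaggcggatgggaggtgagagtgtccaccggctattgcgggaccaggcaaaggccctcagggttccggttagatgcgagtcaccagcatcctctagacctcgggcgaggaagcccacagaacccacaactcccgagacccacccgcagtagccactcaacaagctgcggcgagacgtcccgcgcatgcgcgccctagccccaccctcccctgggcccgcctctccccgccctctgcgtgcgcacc
Ctps2 (chrX:162901921-162902170, plus strand): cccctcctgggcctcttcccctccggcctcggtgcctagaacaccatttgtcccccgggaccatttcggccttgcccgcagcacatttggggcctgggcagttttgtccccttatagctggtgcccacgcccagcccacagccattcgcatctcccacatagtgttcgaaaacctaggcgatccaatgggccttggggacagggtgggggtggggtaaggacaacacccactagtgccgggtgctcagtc
That these letters are absent from a window says nothing about the factor.

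Library totals lay between 12511170 and 17690798 counts. Hepatocyte markers were present in every library: 9 of the 10 listed were in the files, none was at 0, and Alb averaged between 21200 and 66700 CPM (counts relative to the library total, with TMM scaling) in the 5 groups. Their summed CPM ran from 78300 to 93500 in YAP controls, 70600 to 90000 at 2 weeks, 35200 to 73200 at 4 weeks, 31300 to 55600 in MYC livers and 108000 to 111000 in MYC controls. Several libraries stood apart. Both 2-week libraries held skeletal muscle transcripts (summed CPM at least 920, at most 50.1 elsewhere). Xist was high and Y-linked genes were low in 2-week replicate 2 and in all 3 of the 4-week libraries, whereas the other 8 libraries showed the reverse, so sex and 4 weeks of induction cannot be told apart. Prps1, Prps2, Ctps2, Hprt and Sms are X-linked. At 4 weeks, cholangiocyte markers summed to 505 CPM in replicate 1 and 3210 and 3310 CPM in replicates 2 and 3, and MYC replicate 2 had the highest sum of cycling-cell markers (2850 CPM). In bulk tissue, fewer cells of a type and less RNA per cell cannot be told apart.

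Across the 30 genes, 9 passed the test at 2 weeks of YAP (6 higher, 3 lower), 10 at 4 weeks (5 higher, 5 lower) and 10 in MYC livers (8 higher, 2 lower), each against its own controls. Genes were called at a Benjamini-Hochberg adjusted p under 0.05 in edgeR's quasi-likelihood test over 17964 genes. At 2 weeks the shares were 20.0% higher and 10.0% lower, against 15.1% and 12.7% of all tested genes. At 4 weeks they were 16.7% in each direction, against 18.1% and 15.7%, so both YAP shares were near the background. In MYC livers 26.7% of the members were higher and 6.67% lower, against 9.76% and 8.56% of all genes. Because the members were chosen with earlier results of these data known, this gap is a description only. The median log2 fold change of the members was 0.07, -0.07 and 0.33 in these comparisons, beside 0.10, 0.18 and 0.02 for all tested genes.

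Impdh1, Ctps2, Tk1 and Mthfd1l rose in all 3 comparisons with controls, and Adk, which phosphorylates adenosine, fell in all 3. Another 11 members were called in 1 or both of the YAP comparisons or in MYC livers, and 14 members were called in none. Of the 11, 5 were called in MYC livers without a YAP call and 6 in a YAP comparison without a MYC call. Such overlaps were not counted over all tested genes, and both YAP comparisons use the same controls. A call in 1 model only is not a difference between models: 0 of 30 members passed the direct edgeR test of the MYC effect against the 4-week YAP effect. No member was called in opposite directions. These counts depended on single libraries: leaving out 2-week replicate 2 gave 6 calls at 2 weeks, leaving out YAP control 1 or 2 gave 5 or 4, and in the MYC comparison 3 calls were left without MYC replicate 2 and 2 without either MYC control. They also depended on scaling. Scaling by total counts alone moved the median log2 change of all genes to 0.64, 0.91 and 0.43. The splits of the members became 11 higher and 2 lower, 14 and 2, and 12 and 0. The shares over all tested genes also moved, to 29.1% higher and 5.45% lower, 43.8% and 4.99%, and 18.2% and 4.14%. The median of the members was then 0.61, 0.65 and 0.74, above that of all genes only in MYC livers. With total-count scaling, 9, 11 and 7 members had a log2 change of the other sign.

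**Figure D1:**
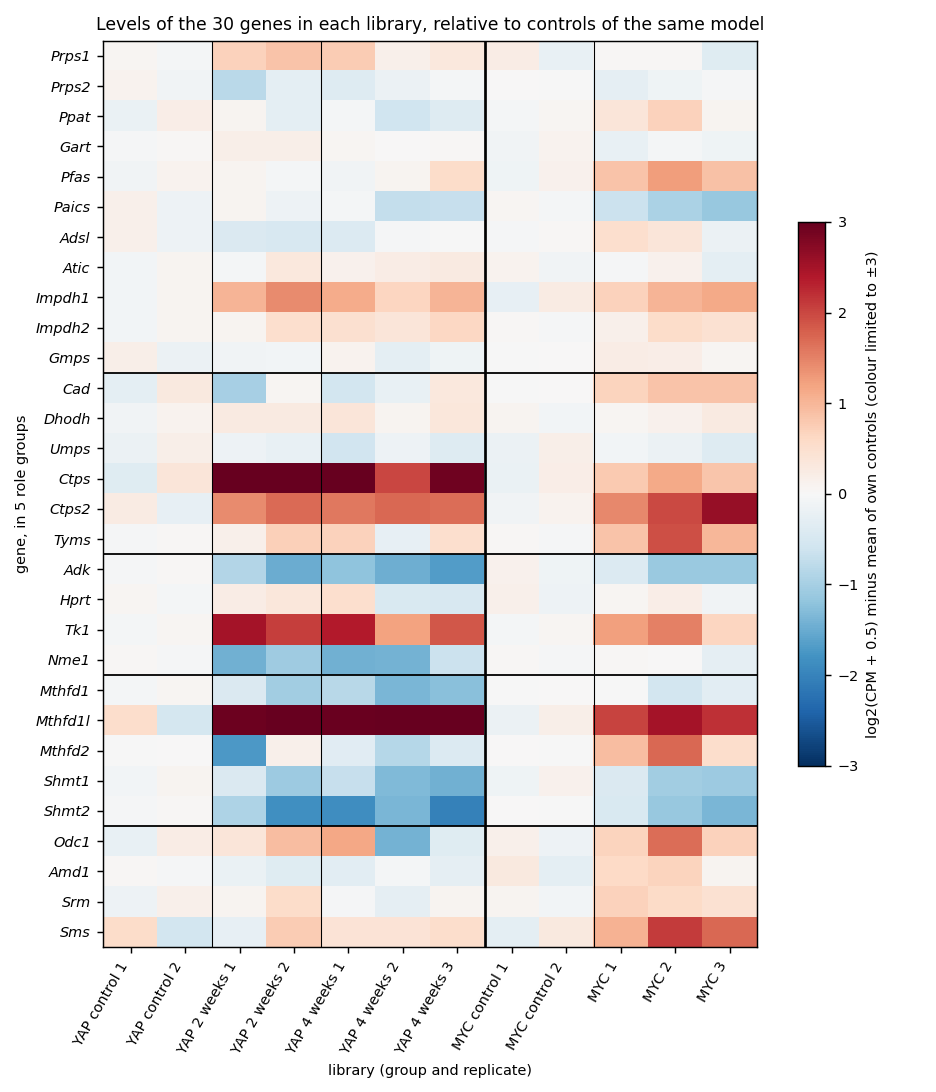
Level of each member in each library as log2(CPM + 0.5) minus the mean of the controls of the same model, with colour limited to ±3, genes in rows by role and libraries in columns. Mthfd1l and Ctps are dark red in most YAP libraries, Ctps2, Mthfd1l and Sms are red in the 3 MYC libraries, and Adk and Shmt2 are blue in the induced libraries of both models.

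**Figure D2:**
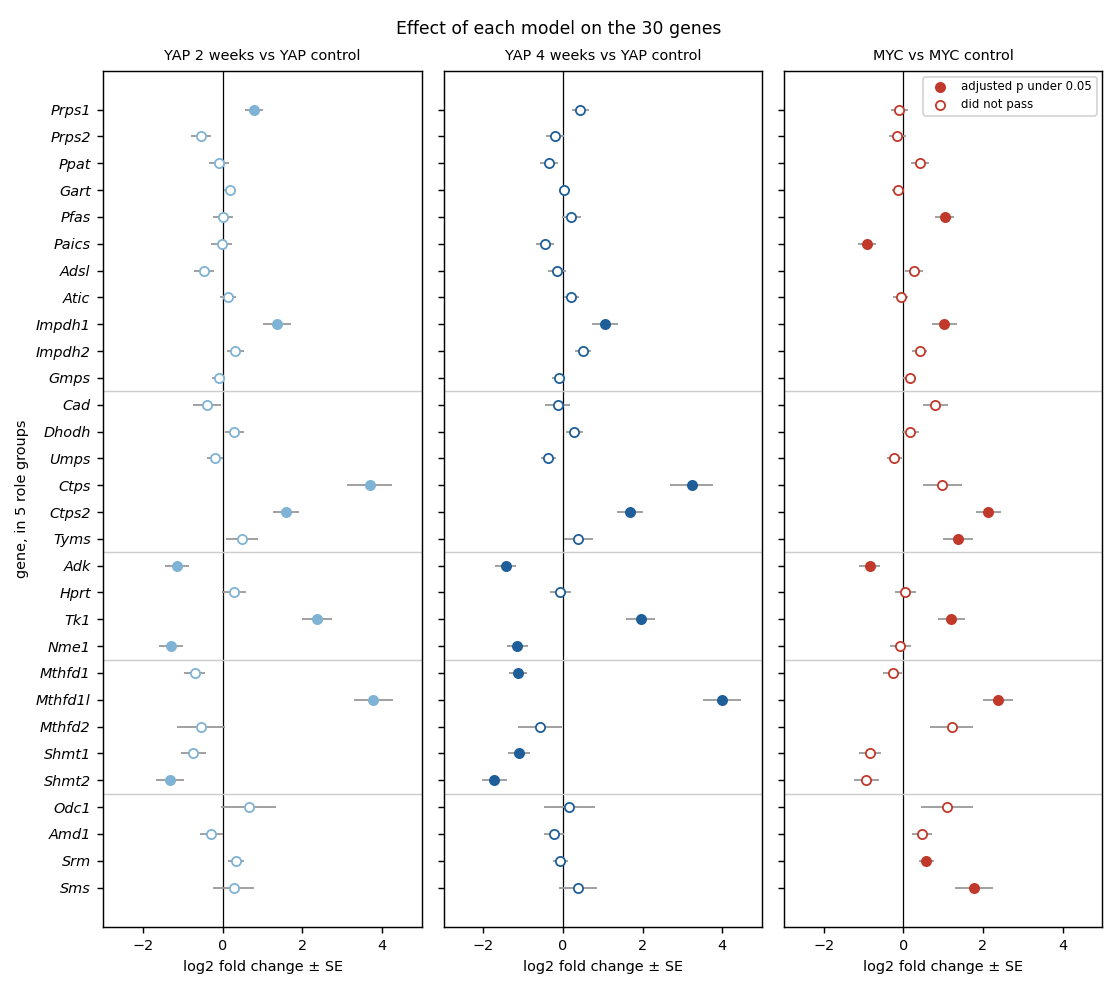
Log2 fold change with its standard error for each of the 30 genes in the 3 comparisons with controls; filled points passed an adjusted p of 0.05 and open points did not. Filled points number 9, 10 and 10, and most of the 11 purine genes lie near 0 in all 3 panels.

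In de novo purine synthesis, which assembles the purine ring on ribose phosphate, most of the 11 genes did not pass the test. The count was 2 higher and 0 lower at 2 weeks (18.2% and 0%), 1 and 0 at 4 weeks (9.09% and 0%), and 2 and 1 in MYC livers (18.2% and 9.09%). Over all tested genes the shares were 15.1% and 12.7%, 18.1% and 15.7%, and 9.76% and 8.56%. The gene with the most calls was Impdh1, an IMP dehydrogenase that commits the pathway to guanine nucleotides. Impdh1 stood at 2.71 and 3.08 CPM in YAP controls, 6.38 and 8.55 at 2 weeks, 6.86, 4.82 and 6.34 at 4 weeks, 3.18 and 4.76 in MYC controls, and 6.55, 8.48 and 9.23 in MYC livers. Every induced library was above every control of its model, and its log2 fold changes were 1.37 ± 0.35 (SE), 1.05 ± 0.32 and 1.02 ± 0.31 (adjusted p = 0.0137, 0.0275 and 0.0432). Its relative Impdh2, the more abundant form per kb of exon, held 83.4% ± 0.023 (SD, n = 2) of the pair's level per kb in YAP controls and 70.8% ± 0.066 (n = 2) at 2 weeks. That share was 77.6% ± 2.35 (n = 3) at 4 weeks, 80.2% ± 5.01 (n = 2) in MYC controls and 72.4% ± 1.62 (n = 3) in MYC livers. Impdh2 itself was not called.

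Pfas and Paics moved in opposite directions in MYC livers. Pfas, which adds an amide nitrogen midway through ring assembly, was at 11.8 and 14.2 CPM in MYC controls and 23.8, 31.7 and 24.4 in MYC livers, a 2.05-fold rise (log2 1.04 ± 0.24, adjusted p = 0.0136). In YAP libraries Pfas lay between 9.37 and 15.0 CPM, with overlapping groups. Paics, a bifunctional enzyme of the same pathway and the most abundant member of the purine group per kb in all 5 groups, was at 243 and 224 CPM in MYC controls and 148, 121 and 105 in MYC livers (log2 -0.91 ± 0.23, adjusted p = 0.0204). With total-count scaling the Paics change was -0.51 (adjusted p = 0.0634), and with a replicate block -0.805 (0.0534). In the YAP model Paics read 278 and 224 CPM in controls, 266 and 225 at 2 weeks, and 240, 152 and 155 at 4 weeks, and was not called. Paics and Ppat, the amidotransferase that opens the pathway, start head to head and their annotated spans share 272 bases on opposite strands, where reads cannot be assigned without a stated strand setting.

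Prps1, which makes the ribose phosphate donor, passed at 2 weeks: 36.8 and 33.7 CPM in controls against 57.0 and 64.6 (log2 0.79 ± 0.24, adjusted p = 0.0289). At 4 weeks it read 60, 39.0 and 43.7 CPM, above both controls but not called (adjusted p = 0.146). In the MYC model it read 33.8 and 25 CPM in controls and 29.6, 29.6 and 22.6 in MYC livers, with overlap. Prps2, Ppat, Gart, Adsl, Atic, Impdh2 and Gmps were called in no comparison, with log2 changes between -0.55 and 0.51. Gart, a trifunctional enzyme, stayed between 22.6 and 28.2 CPM in all 12 libraries, and Gmps, which makes GMP, between 52.2 and 76.3. Several purine calls depended on single libraries or on the fit. Prps1 lost its 2-week call in each of the 4 fits that left out 1 library, that is without YAP control 1 or 2 or 2-week replicate 1 or 2 (adjusted p between 0.0551 and 0.145). Impdh1 lost its call at 2 weeks without YAP control 1, YAP control 2 or 2-week replicate 2 (0.0568 to 0.0981) and at 4 weeks without either YAP control or 4-week replicate 1 or 3 (0.0553 to 0.139). With every library of the groups compared kept, the 4-week and MYC calls of Impdh1 were also lost in other fits. These were the fits with no filter on low counts (0.0524 and 0.0854), of only the groups compared (0.0684 and 0.0584) and with a replicate block (0.104 and 0.167). In MYC livers Impdh1 also lost its call without MYC replicate 2 or 3 or either control (0.0984 to 0.31), Paics without the same 4 libraries (0.0665 to 0.139), and Pfas without either control (0.0699 and 0.14). Paics was called lower at 4 weeks without 4-week replicate 1 (log2 -0.71, adjusted p = 0.018).

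Of the 6 genes of pyrimidine synthesis, 2 (33.3%) were higher and 0 lower in each comparison with controls. They were Ctps and Ctps2 at both YAP times, and Ctps2 and Tyms in MYC livers. Over all tested genes 15.1% were higher and 12.7% lower at 2 weeks, 18.1% and 15.7% at 4 weeks, and 9.76% and 8.56% in MYC livers. Ctps and Ctps2 encode CTP synthases, which convert UTP to CTP. Ctps (chr4:120539868-120570276, minus strand) was at 2.51 and 4.46 CPM in YAP controls, 34.5 and 55.5 at 2 weeks and 54.2, 15.0 and 28.9 at 4 weeks. All 5 induced libraries were above both controls, by 12.9-fold at 2 weeks and 9.40-fold at 4 weeks (log2 3.69 ± 0.57 and 3.23 ± 0.54, adjusted p = 0.0013 and 0.00162). In MYC livers it read 9.11, 11.8 and 9.40 CPM against 4.33 and 5.93 in controls, without overlap, but did not pass (log2 0.98 ± 0.49, adjusted p = 0.196). When the MYC model was fitted alone, Ctps was called higher (log2 1.00, adjusted p = 0.0456).

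Ctps2 (chrX:162901238-163032508, plus strand) was called in all 3 comparisons. In the YAP model it read 10.2 and 7.11 CPM in controls, 23.6 and 28.7 at 2 weeks and 26.4, 29.1 and 28.3 at 4 weeks. In the MYC model it read 11 and 12.9 CPM in controls and 33.2, 48.2 and 75.9 in MYC livers. No induced library overlapped its controls, and the folds were 3.01, 3.21 and 4.38 (log2 1.59 ± 0.33, 1.68 ± 0.32 and 2.13 ± 0.32, adjusted p = 0.00548, 0.00248 and 0.00167). Xist was high in 2-week replicate 2 and in the 4-week libraries, and its part in the YAP rise of this X-linked gene was not tested. The 2-week call was lost without YAP control 2 (adjusted p = 0.057). Per kb, Ctps2 made up 63.5% ± 15.0 (SD, n = 2) of the pair in YAP controls, 29.6% ± 4.10 (n = 2) at 2 weeks and 41.3% ± 16.2 (n = 3) at 4 weeks. In the MYC model it made up 62.3% ± 2.44 (n = 2) in controls and 77% ± 7.02 (n = 3) in MYC livers.

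Tyms, the thymidylate synthase that uses a folate carbon to make the thymine base, passed in MYC livers: 19.7, 42.3 and 21.9 CPM against 11 and 10.4 (log2 1.38 ± 0.38, adjusted p = 0.0275). In the YAP model it read 8.02 and 8.38 CPM in controls, 9.21 and 13.8 at 2 weeks and 13.5, 6.82 and 11.8 at 4 weeks, and was not called. With a replicate block the MYC call of Tyms was lost (adjusted p = 0.0945). MYC replicate 2, the library highest for Tyms, was also the highest for cycling markers. Without it the Tyms change was 0.96 (adjusted p = 0.0892), and without MYC control 1 or 2 the adjusted p was 0.155 or 0.161. Cad, the trifunctional enzyme of the first 3 steps and a known MYC target, read 36.4 and 36.5 CPM in MYC controls and 58.1, 66.2 and 66.6 in MYC livers, without overlap, and missed the threshold (log2 0.80 ± 0.32, adjusted p = 0.109). It passed when the MYC model was fitted alone (adjusted p = 0.0145). Dhodh, the mitochondrial step, and Umps, the step that completes UMP, were called nowhere, with log2 changes between -0.38 and 0.29.

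Salvage enzymes recycle bases and nucleosides, and nucleotide kinases add phosphates. Of the 4 members, Tk1 rose in all 3 comparisons, Adk fell in all 3, Nme1 fell at both YAP times, and Hprt, which salvages hypoxanthine and guanine, was called in none. Tk1, the thymidine kinase of dividing cells, read 9.76 and 10.5 CPM in YAP controls, 59.9 and 44.2 at 2 weeks, 54.9, 24.1 and 38.1 at 4 weeks, 13.1 and 14.4 in MYC controls, and 33.1, 40.0 and 21.9 in MYC livers. No induced library overlapped its controls. The folds were 5.13, 3.85 and 2.30 (log2 2.36 ± 0.38, 1.95 ± 0.35 and 1.2 ± 0.34, adjusted p = 0.00137, 0.00224 and 0.0321). Of 10 cycling-cell markers, 10, 9 and 6 were called higher and 0 lower in these comparisons. Their summed level was 42.8 to 44.6 CPM in YAP controls, 317 to 555 at 2 weeks, 163 to 655 at 4 weeks, 166 to 187 in MYC controls and 744 to 2850 in MYC livers. By library, the sum and Tk1 had the same order at 4 weeks. At 2 weeks the order was reversed, with sums of 317 in replicate 1 and 555 in replicate 2. In MYC livers replicate 2 was highest for both, but replicate 3, lowest for Tk1, had a sum of 1230 CPM. The part of cycling-cell markers in the Tk1 and Tyms results was not tested. The MYC call of Tk1 was lost without MYC replicate 2 (adjusted p = 0.1) or MYC control 1 or 2 (0.201 and 0.147).

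Adk was the most abundant salvage member per kb in all 5 groups. It read 579 and 603 CPM in YAP controls, 321 and 210 at 2 weeks, 256, 213 and 185 at 4 weeks, 506 and 418 in MYC controls, and 348, 211 and 213 in MYC livers. All induced libraries were below their controls, with log2 changes of -1.16 ± 0.30, -1.44 ± 0.27 and -0.85 ± 0.27 (adjusted p = 0.0152, 0.0023 and 0.0476). The 4-week fall kept its call in all 11 alternatives run. With a replicate block the MYC call was lost (adjusted p = 0.106). The 2-week call was lost without YAP control 1 or 2 or 2-week replicate 2 (adjusted p 0.0596 to 0.126), and the MYC call without MYC replicate 2 or 3 or either control (0.122 to 0.273), with total-count scaling (log2 -0.46, 0.102) and when the MYC model was fitted alone (0.0734). Adk is high in normal liver. Of 9 hepatocyte markers, 0 were called higher, and 3, 6 and 4 were called lower at 2 weeks, 4 weeks and in MYC livers. At 2 weeks the other 6 were not called, and their summed level overlapped the controls (70600 to 90000 against 78300 to 93500 CPM). Among these 6, mean Alb was 54700 CPM at 2 weeks against 40400 in controls, and mean Apoa1 6750 against 6030. The part of hepatocyte markers in the Adk result was not tested.

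Nme1, a nucleoside diphosphate kinase, read 22.5 and 21.5 CPM in YAP controls, 7.72 and 10.2 at 2 weeks and 7.75, 7.97 and 14 at 4 weeks (log2 -1.30 ± 0.30 and -1.15 ± 0.26, adjusted p = 0.00821 and 0.00672). In the MYC model it read 15.8 and 15.0 CPM in controls and 15.7, 15.5 and 12.7 in MYC livers, with overlap (log2 -0.08). With total-count scaling the YAP changes were -0.75 and -0.39 and no longer passed (adjusted p = 0.12 and 0.32), and without 2-week replicate 1 the 2-week adjusted p was 0.0662. The annotated span of Nme1 shares 11315 bases on the same strand with the protein-coding gene Gm20390, which was at 0 CPM throughout. How reads in the shared bases were assigned is not given. Hprt lay between 22.3 and 44.1 CPM over the 12 libraries.

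**Figure D3:**
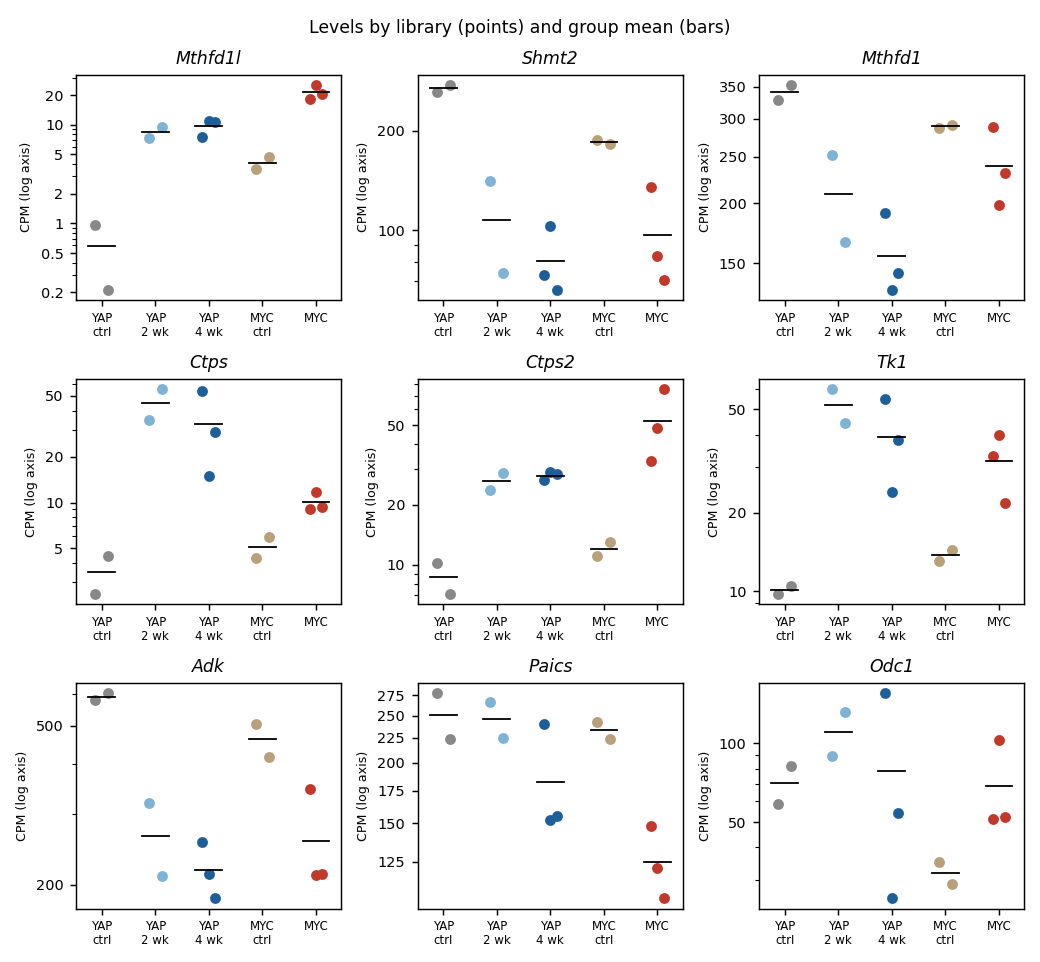
Level of 9 members in each library (points, CPM on a log axis) with the group mean (bars). Mthfd1l, Ctps2 and Tk1 lie above their own controls in every induced library, Adk and Shmt2 lie below, and Odc1 at 4 weeks spans 25.6 to 155 CPM.

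In folate one-carbon metabolism the mitochondrial enzyme Mthfd1l rose while its partners fell or did not pass. The group had 1 member higher and 1 lower at 2 weeks, 1 and 3 at 4 weeks, and 1 and 0 in MYC livers. Mthfd1l (chr10:3973118-4167081, plus strand), which releases formate from mitochondria, read 0.966 and 0.212 CPM in YAP controls, from only 10 and 2 counts. It read 7.30 and 9.44 CPM at 2 weeks, 7.43, 11 and 10.7 at 4 weeks, 3.54 and 4.68 in MYC controls, and 18.2, 25.4 and 20.3 in MYC livers. Groups were far apart, with log2 changes of 3.78 ± 0.49, 4.00 ± 0.47 and 2.37 ± 0.38 (adjusted p = 0.000395, 0.000191 and 0.00231), and each call was kept in all alternatives run (10, 11 and 11). Because the YAP controls held few counts, the ratio of counts was also taken with a 95% interval for counting error: 13.9 (7.85 to 27.3) at 2 weeks and 16.1 (9.16 to 31.4) at 4 weeks. Without YAP control 1, which held 10 of the 12 counts, the log2 changes were 5.25 and 5.47. These were the highest over the alternatives, and the lowest were 3.10 and 3.32. The MYC fold was 5.17.

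Its cytosolic relative Mthfd1, which carries 3 folate activities, went the other way at 4 weeks. Mthfd1 read 328 and 353 CPM in YAP controls, 252 and 166 at 2 weeks and 191, 132 and 143 at 4 weeks. The 2-week libraries were below both controls without passing (adjusted p = 0.0643, and 0.0376 in DESeq2), and the 4-week fall passed (log2 -1.13 ± 0.23, adjusted p = 0.00403). In the MYC model Mthfd1 read 287 and 291 CPM in controls and 288, 198 and 231 in MYC livers, with overlap. Per kb, Mthfd1l made up 0.177% ± 0.165 (SD, n = 2) of the pair in YAP controls, 4.11% ± 1.83 (n = 2) at 2 weeks and 6.14% ± 2.1 (n = 3) at 4 weeks. It made up 1.4% ± 0.259 (n = 2) in MYC controls and 8.48% ± 2.74 (n = 3) in MYC livers, so Mthfd1 remained the larger part in every library.

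Both serine hydroxymethyltransferases, which move a carbon from serine to folate, fell at 4 weeks. Shmt2, the mitochondrial form, read 262 and 275 CPM in YAP controls, 141 and 74.3 at 2 weeks, 73.1, 103 and 66.0 at 4 weeks, 187 and 182 in MYC controls, and 135, 83.8 and 70.6 in MYC livers. All induced libraries were below their controls: log2 -1.32 ± 0.35 at 2 weeks, -1.74 ± 0.31 at 4 weeks and -0.94 ± 0.31 in MYC livers (adjusted p = 0.0182, 0.00211 and 0.0601, the last not passing). Shmt1, the cytosolic form, read 137 and 152 CPM in YAP controls, 106 and 67.6 at 2 weeks, 89.6, 57.2 and 53.2 at 4 weeks, 155 and 183 in MYC controls, and 124, 81.0 and 78.4 in MYC livers. Its libraries were likewise all below their controls, and only the 4-week change passed (log2 -1.12 ± 0.28, adjusted p = 0.0105). The 2-week and MYC adjusted p were 0.0967 and 0.057. The Shmt2 fall at 4 weeks kept its call in all 11 alternatives. Its 2-week call was lost without YAP control 1 or 2 or 2-week replicate 2 (adjusted p 0.0655 to 0.137), and the 4-week call of Shmt1 without YAP control 2 (0.0707). With total-count scaling the 4-week changes of Mthfd1 and Shmt1 were -0.41 and -0.40 and did not pass (0.0757 and 0.125). In MYC livers both genes were called lower by DESeq2 (adjusted p = 0.0389 for Shmt2 and 0.0407 for Shmt1). At 4 weeks 6 of 9 hepatocyte markers were called lower and 0 higher, and their sum was 35200 to 73200 CPM against 78300 to 93500 in controls. Replicate 1, with the highest sum at 4 weeks, was also highest for Shmt1 and Mthfd1, but Shmt2 was highest in replicate 2 (sum 36900). At 2 weeks, where only Shmt2 passed, the sum was 70600 to 90000 CPM. In MYC livers it was 31300 to 55600 against 108000 to 111000 in controls, and none of these genes passed in edgeR. The part of hepatocyte markers in the falls of Shmt1, Shmt2 and Mthfd1 was not tested.

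Mthfd2, the mitochondrial dehydrogenase that is low in adult tissue, was called nowhere. It read 4.64 and 4.67 CPM in YAP controls, 1.06 and 5.26 at 2 weeks, 3.56, 2.35 and 3.39 at 4 weeks, 6.19 and 6.16 in MYC controls, and 12.2, 21.7 and 9.17 in MYC livers. The MYC libraries were all above their controls, with a log2 change of 1.22 ± 0.55 (adjusted p = 0.145). The 2-week replicates disagreed: without replicate 2 the log2 change was -2.12 (adjusted p = 0.0413). Over the whole set, levels per kb in YAP controls ran from 0.133 CPM per kb for Mthfd1l to 86.4 for Shmt2, with Paics, Mthfd1 and Adk next to Shmt2 at 79.9, 76.7 and 69.3.

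In polyamine synthesis 0 of 4 members passed at either YAP time, and 2 rose in MYC livers. Sms, the spermine synthase, read 2.74 and 4.29 CPM in MYC controls and 7.56, 16.3 and 12.5 in MYC livers, a 3.43-fold rise (log2 1.78 ± 0.49, adjusted p = 0.0274). Srm, the spermidine synthase, read 34.6 and 31.3 CPM in MYC controls and 53.5, 49.4 and 45.1 in MYC livers, a 1.49-fold rise at the edge of the threshold (log2 0.58 ± 0.18, adjusted p = 0.0498). Neither overlapped its controls. With a replicate block neither call was kept (adjusted p = 0.102 for Sms and 0.105 for Srm). In the YAP model Sms read 4.93 and 2.02 CPM in controls, 2.62 and 5.80 at 2 weeks and 4.38, 4.42 and 4.84 at 4 weeks, and Srm 27.9 and 34.3, 33.0 and 45.6, and 30.2, 25.7 and 32.9. The Sms call was lost without MYC replicate 2 or 3 or either MYC control (adjusted p 0.0609 to 0.215), and the Srm call in each of the 5 fits that left out 1 MYC or MYC control library (0.0609 to 0.263) and with no filter on low counts (0.0659).

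Odc1, the rate-limiting enzyme of the pathway and a classical MYC target, varied widely at 4 weeks. It read 58.8 and 81.5 CPM in YAP controls, 89.3 and 131 at 2 weeks, 155, 25.6 and 53.9 at 4 weeks, 35.3 and 28.9 in MYC controls, and 51.4, 103 and 52.1 in MYC livers. The MYC libraries were above both controls, but the log2 change of 1.10 ± 0.66 did not pass (adjusted p = 0.284). At 4 weeks, replicate 1 was above both controls and replicates 2 and 3 below both. Amd1 lay between 6.63 and 13.3 CPM in all 12 libraries and was called nowhere. Its near-identical copy Amd2 averaged 0.352 CPM, and reads shared between the copies could not be assigned.

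The longer and the shorter YAP induction were compared directly. None of the 30 members passed between 4 and 2 weeks in edgeR or DESeq2. An unadjusted p under 0.05 was seen for 1 member (3.33%, against 6.96% of all tested genes), Srm (log2 -0.41, 95% interval -0.80 to -0.01). Of all tested genes 0% were higher and 0.0612% lower at 4 weeks. The interval for Mthfd1l ran from -0.54 to 0.96, that for Ctps from -1.44 to 0.51 and that for Tk1 from -1.11 to 0.28, so differences of these sizes are not excluded. Without 4-week replicate 1, Hprt was called lower at 4 weeks (log2 -0.75, adjusted p = 0.0415).

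The MYC effect was compared with the 4-week YAP effect as a difference of log2 fold changes. None of the 30 passed in edgeR, where 3.15% of all genes had a larger MYC effect and 4.33% a smaller one. An unadjusted p under 0.05 was seen for 8 members (26.7%), near the 24.5% of all tested genes. The nearest was Ctps, whose MYC effect was smaller by 2.26 on the log2 scale (95% interval -3.80 to -0.71, adjusted p = 0.0773). It passed in DESeq2 (-2.22, adjusted p = 0.016), with total-count scaling (-2.54, 0.0467) and without 4-week replicate 2 (-2.6, 0.0163). Mthfd1l differed by -1.63 (interval -2.90 to -0.35, adjusted p = 0.115) and was called without YAP control 1 (-3.10, 0.0432). Nme1 differed by 1.08 (0.25 to 1.90, adjusted p = 0.107) and was called without 4-week replicate 3 (1.41, 0.0307). Mthfd2 differed by 1.80 (0.12 to 3.48, adjusted p = 0.175). For all 4 polyamine genes the MYC log2 fold change was above the 4-week YAP one, by 0.65 to 1.39, and none passed. The difference was positive for 20 of the 30 members, and its median over all tested genes was -0.068. Over the 30 members, the MYC and 4-week YAP log2 changes had a Pearson r of 0.73 and a Spearman rho of 0.68, against 0.45 and 0.45 over all 17964 genes. This is a description across genes measured in the same libraries, and genes are not independent replicates.

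**Figure D4:**
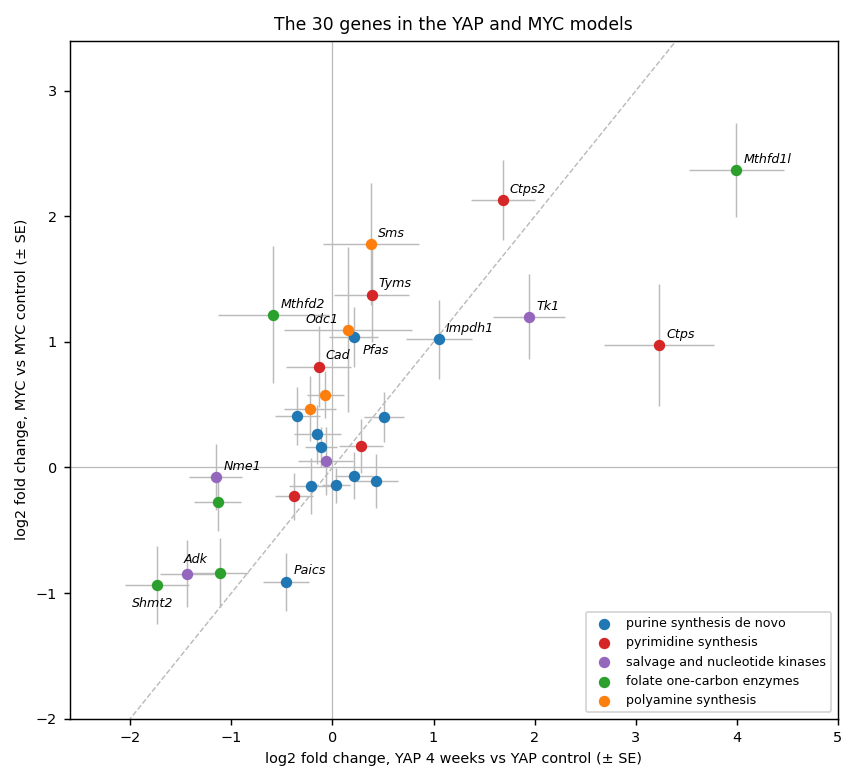
Log2 fold change in MYC livers (vertical) against that at 4 weeks of YAP (horizontal) for the 30 genes, with standard errors, coloured by role; the dashed line marks equal effects. Mthfd1l, Ctps and Tk1 lie below the line on the right, and Mthfd2, Sms, Tyms and Odc1 lie above it.

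A further 106 genes of the same pathways were taken from 4 lists, and 104 could be tested (Nme3 and Amd2 could not). Of these, 10 were higher and 20 lower at 2 weeks, 13 and 33 at 4 weeks, and 19 and 8 in MYC livers (9.62% and 19.2%, 12.5% and 31.7%, 18.3% and 7.69%). The shares over all tested genes were 15.1% and 12.7%, 18.1% and 15.7%, and 9.76% and 8.56%. With TMM scaling the pathway genes were thus below the background for rises and above it for falls at both YAP times. In MYC livers they were above it for rises and near it for falls. With total-count scaling the splits were 33 and 11, 40 and 11, and 25 and 3, of 104. The shares over all tested genes were then 29.1% and 5.45%, 43.8% and 4.99%, and 18.2% and 4.14%. Rises at 2 weeks were then not below the background, while falls stayed above it at both YAP times. With TMM scaling, the folate, serine and methionine list had 3 higher and 4 lower at 2 weeks, 5 and 11 at 4 weeks, and 4 and 2 in MYC livers, of 31. The polyamine list had 2 and 7, 1 and 9, and 4 and 2, of 22. The purine list had 3 and 6, 4 and 8, and 5 and 2, of 28, and the pyrimidine and deoxynucleotide list 2 and 3, 3 and 5, and 6 and 2, of 23.

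The largest rises in the folate list were in serine synthesis, which feeds carbon to the members above. Psat1, the serine pathway aminotransferase, read 0.386 and 0.743 CPM in YAP controls, 9.56 and 21.1 at 2 weeks, 19.4, 6.14 and 16.7 at 4 weeks, 6.01 and 6.16 in MYC controls, and 61.8, 91.3 and 154 in MYC livers. It was called in all 3 comparisons (log2 4.76 ± 0.81, 4.63 ± 0.79 and 4.07 ± 0.62, adjusted p = 0.00252, 0.00205 and 0.00279) and in every alternative run. Phgdh, the first enzyme of serine synthesis, read 0.386 and 0.743 CPM in YAP controls, 3.26 and 9.15 at 2 weeks, 9.08, 6.42 and 9.29 at 4 weeks, 0.619 and 1.09 in MYC controls, and 11.8, 24.2 and 47.0 in MYC livers. Its log2 changes were 3.46 ± 0.80, 3.87 ± 0.77 and 4.99 ± 0.73 (adjusted p = 0.00967, 0.0038 and 0.00194), and the 2-week call was lost without YAP control 1 (0.0834) or 2-week replicate 2 (0.0682). Both genes had as few as 4 counts in a control library, so the size of these changes is less certain than their direction. Gnmt, the liver enzyme that uses S-adenosylmethionine to methylate glycine, fell at 4 weeks (log2 -2.24 ± 0.59, adjusted p = 0.0164). With no filter on low counts (0.0687) or with a replicate block (0.0666) it was not called. That call was lost without YAP control 1 (0.063) or 2 (0.0691) or 4-week replicate 1 (0.0508) or 3 (0.0582). Bhmt and Mat1a, methionine cycle enzymes of hepatocytes, were called nowhere.

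Among the genes of deoxynucleotide supply, Rrm1, the large subunit of ribonucleotide reductase, rose in MYC livers (60.7, 147 and 68.9 CPM against 19.0 and 28.8, log2 1.95 ± 0.46, adjusted p = 0.0176). Without MYC control 1 or 2 the adjusted p was 0.157 or 0.0775, and with no filter on low counts 0.0617. Rrm2, the small subunit, was called nowhere; it read 30.6, 107 and 40.7 CPM in MYC livers and 4.60 and 6.08 in MYC controls (adjusted p = 0.0631). Dpyd, which starts pyrimidine breakdown, fell at 2 and 4 weeks (708 and 644 CPM in controls, 184 and 106, then 113, 215 and 142) with log2 changes of -2.23 ± 0.41 and -2.11 ± 0.36 (adjusted p = 0.00281 and 0.00145). Its MYC fall was -1.26 ± 0.35 (adjusted p = 0.0309), and that call was lost without MYC replicate 2 or 3 or either MYC control (0.0959 to 0.154), with total-count scaling (-0.89, 0.0555) and with no filter on low counts (0.0604). Uck1 and Uck2, both uridine-cytidine kinases, moved apart at 2 weeks: Uck1 fell by 1.41 on the log2 scale (adjusted p = 0.000801) and Uck2 rose by 1.6 (adjusted p = 0.00293). At 4 weeks the values were -1.39 (0.000352) and 1.12 (0.0106), and the Uck2 call was lost without YAP control 1 (0.101).

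In purine salvage, Aprt, which salvages adenine, was higher in all 3 comparisons (log2 1.59 ± 0.28, 1.23 ± 0.26 and 1.24 ± 0.26, adjusted p = 0.002, 0.00449 and 0.00888). Its 4-week call was lost without YAP control 1 (0.0553) and its MYC call without MYC control 1 (0.0621) or 2 (0.0959). In polyamine turnover, Paox, a polyamine oxidase, read 27.7 and 26.5 CPM in YAP controls, 9.78 and 9.98 at 2 weeks and 7.43, 9.58 and 5.12 at 4 weeks (log2 -1.46 ± 0.30 and -1.88 ± 0.26, adjusted p = 0.00465 and 0.000491). Azin1, which protects ODC1 from its antizyme, read 166 and 166 CPM in YAP controls, 81.1 and 80.1 at 2 weeks and 82.2, 65.6 and 60.9 at 4 weeks (log2 -1.04 ± 0.19 and -1.25 ± 0.17, adjusted p = 0.00255 and 0.000401). With total-count scaling the 2-week fall of Azin1 did not pass (log2 -0.51, adjusted p = 0.0739). Azin1 also passed in MYC livers (log2 -0.67, adjusted p = 0.0205), but not with total-count scaling (-0.25, 0.348) or without MYC replicate 3 (0.0619) or MYC control 1 (0.0918) or 2 (0.152). Macrophage markers and part of the cholangiocyte markers were also higher in the YAP model. Macrophage markers summed to 252 to 264 CPM in YAP controls, 1400 to 1750 at 2 weeks and 518 to 1090 at 4 weeks, with 8 and 6 of 10 genes called higher and 0 lower. Cholangiocyte markers summed to 160 to 182, 646 to 1300 and 505 to 3310 CPM, with 3 and 5 of 8 called higher and 0 lower. Most of the induced sums was Spp1, which averaged 69.3, 731 and 1920 CPM in these groups. The other 5 and 3 markers were not called. Mean Krt19 and Muc1 were lower at 2 weeks than in controls (5.02 against 7.62 and 1.73 against 16.3 CPM). In MYC livers 5 of 10 macrophage markers were called higher and 0 of 8 cholangiocyte markers were called, and erythroid markers summed to 267 to 1700 CPM against 94.9 to 121 in controls. Their part in the changes of the members was not tested.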

How the data were processed

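RNA was isolated from total liver with TRIzol and RNeasy columns and libraries were made with a Nugen Ovation Mouse kit, per the labels' protocols. Each library has 1 deposited file of unnormalized read counts, listed by gene symbol. The submitters' processing notes name DESeq2 1.20.0, featureCounts 1.6.3, Trim Galore 0.4.1, HISAT2 2.1.0 and the build GRCm38 (mm10). The strand setting, the annotation release and any treatment of multimapped reads are not given in the sources used here.

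Counts of all 12 libraries were fitted with edgeR 4.0.16 in R 4.3.3: filterByExpr (17964 genes kept), TMM scaling, 1 mean per group, and robust quasi-likelihood tests (two-sided, 7 residual degrees of freedom, biological coefficient of variation 31.5%). P-values were Benjamini-Hochberg adjusted over all tested genes. The scripts were tested on simulated data. CPM are TMM-scaled; values per kb use the exon length of GENCODE vM21, which also gave coordinates. Replicates differed by more than counting error (chi-square per degree of freedom 11.2 to 107 within groups). Intervals on counts cover counting error only. DESeq2 1.42.0, other scalings, no filter, fits of only the groups compared, a replicate block and leaving out each library were alternatives. For MYC livers against controls, the groups compared are the MYC model alone. The members, gene lists and marker lists were chosen with earlier results of these data known. Values in every library are given for members called in a comparison with controls and for members or pathway genes singled out beside them; of the other pathway genes, up to 4 called per list and comparison with the smallest p, plus a fixed set, could be named, and those printed were picked from them after the effect of leaving out libraries was seen.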

Additional observations from a re-analysis of the deposited data

Results flagged for a closer look

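Among the pathway genes outside the 30 members, 3 had a MYC effect that differed from the 4-week YAP effect in the test of the difference itself (edgeR, adjusted over all genes). That is 1.92% with a larger and 0.962% with a smaller MYC effect of the 104 tested, below the 3.15% and 4.33% of all tested genes. Nme6, a nucleoside diphosphate kinase family member, differed by 2.03 ± 0.37 (SE) on the log2 scale (adjusted p = 0.00872). It read 19.4 and 21.2 CPM in YAP controls, 5.40, 9.41 and 8.34 at 4 weeks, 8.84 and 12.2 in MYC controls, and 17.8, 14.1 and 17.1 in MYC livers. Uck1, a uridine-cytidine kinase, differed by 1.08 ± 0.26 (adjusted p = 0.0318), from 18.9 and 20.9 to 7.88, 7.34 and 7.51 CPM at 4 weeks and from 14.8 and 15.4 to 13, 10.4 and 12.9 in MYC livers. Ggh, which trims polyglutamate from folates, differed by -1.56 ± 0.29 (adjusted p = 0.0103). It read 14.4 and 11.6 CPM in YAP controls, 22.8, 18.9 and 20.1 at 4 weeks, 11.8 and 9.36 in MYC controls, and 5.06, 5.75 and 6.21 in MYC livers. Because the 2 models also differ in age and sex pattern, these differences cannot be told apart from those. The single comparisons behind them did not all hold in edgeR alternatives. The 4-week rise of Ggh did not pass with no filter on low counts (adjusted p = 0.0664) or with only the groups compared (0.0555). With total-count scaling, neither the MYC fall of Ggh (log2 -0.47, adjusted p = 0.165) nor the 4-week fall of Nme6 (-0.64, 0.0895) passed.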

How the results depend on the processing

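Groups of 2 and 3 libraries limit every result. Called members numbered 4 to 8 at 2 weeks, 8 to 10 at 4 weeks and 2 to 11 in MYC livers when 1 library was left out, against 9, 10 and 10, and 0 to 1 for 4 against 2 weeks and for the MYC effect minus the 4-week effect, against 0. With total-count scaling the 4-week count was 16 and that of the effect difference 1; DESeq2 also gave 1 for the difference. The cause was not tested. Total-count scaling gave the polyamine gene Oaz1 at 4 weeks the other sign (0.147, did not pass). The fit with a replicate block called 9, 9, 4, 0 and 0 members. Among pathway genes named above, it lost the MYC calls of Aprt, Azin1, Dpyd and Ggh (adjusted p 0.0585 to 0.16). It also lost the 4-week calls of Ggh, Gnmt and Uck2 (0.0628 to 0.086). Samples with the same number did not deviate together (correlations -0.073 to 0.105), so they share only a number. Of 981 values of called genes under alternatives, 791 kept direction and call, 189 kept direction only and 1 reversed. With low counts, as for Mthfd1l in YAP controls, depth limits the size of the fold.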
